A study of Homo sapiens with 18 samples.

Results

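TMD8 is a human cell line established from a diffuse large B-cell lymphoma of the activated B-cell type, and JIB-04 is a small molecule known as an inhibitor of the Jumonji-domain (JmjC) histone demethylases. The comparison described here set TMD8 cells given 500 nM JIB-04 against TMD8 cells given 0.01% DMSO, the vehicle in which the compound is dissolved. It used the 3 libraries of each of these groups, 6 of the 18 libraries of the series, and every gene of the deposited count table. The other libraries were 3 of TMD8 at 150 nM and 9 of OCI-Ly1, a second line from a diffuse large B-cell lymphoma, given DMSO, 150 nM or 500 nM. TMD8 was grown in RPMI 1640 and OCI-Ly1 in IMDM, each with fetal bovine serum, penicillin and streptomycin, and the labels name no genetic change in either line. Total RNA from RNeasy columns was depleted of ribosomal RNA before paired-end sequencing. The labels say that libraries were made in technical triplicate, do not name separate cultures and give no treatment time, so the p-values below measure only the spread between these libraries, which may be technical.

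JmjC demethylases remove methyl groups from histone lysines in a reaction that needs iron, oxygen and 2-oxoglutarate, and several of them act on histone H3 lysine 9, the methyl mark of heterochromatin. Activated B-cell lymphomas are known for steady signalling from the B-cell receptor and MYD88 to NF-kB and for high levels of the transcription factor IRF4. Cells under chemical stress commonly switch on separate gene programmes: heat shock genes under HSF1, metallothioneins under the zinc sensor MTF1, amino-acid and redox genes under ATF4, and cell-cycle brakes under p53.

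The 3 DMSO libraries held 16790982 to 20509500 estimated counts and the 3 libraries at 500 nM held 9550092 to 14803022. A count floor of 3 corresponded to 0.151 to 0.190 CPM, counts scaled to the library total, with DMSO and to 0.198 to 0.307 CPM at 500 nM. The first DMSO library stood apart: its chi-square per degree of freedom over genes was 10.7 and 11.4 against the other DMSO libraries, while the remaining pairs within groups lay between 1.65 and 2.05. No pair agreed within sampling noise, so each library was kept as 1 replicate. Loci that resemble ribosomal spacer RNA (MIR3648, MIR3687, MIR663A, MIR663B, LOC284801 and LINC00273) took 1.74% to 2.97% of counts with DMSO and 4.03% to 4.67% at 500 nM. All values below are CPM after TMM scaling of the library sizes unless another scale is named, and SD values are over 3 libraries.

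At 500 nM the RNA of TMD8 changed at most of its measured genes, and after TMM scaling the large rises outnumbered the large falls. Of 23686 genes in the table, 15363 passed the count filter and were tested, and 9324 of these (60.7%) differed from DMSO at an edgeR adjusted p under 0.05, the threshold used throughout for a gene that rose or fell. The genes that rose numbered 4601 (29.9% of those tested) and those that fell 4723 (30.7%). Many of the changes were small, since 4458 of the 9324 were under 0.5 on the log2 scale. A rise of at least 1 on the log2 scale was found for 1237 genes (8.05%) and a fall of that size for 330 (2.15%), and past a log2 change of 3 there were 138 rises and 3 falls. Of the 1237 large rises 522 were of genes whose DMSO libraries would not have passed the count filter on their own, so that they were tested through the treated libraries. The excess of large rises depended on the scale: changes of at least 1 numbered 156 higher and 900 lower on log2(TPM + 1), where TPM is the deposited unit scaled by transcript length, 298 and 292 on that scale after centring each library, and 894 and 143 on it with small RNAs left out. In 10196 genes (66.4%) the 3 libraries of one group all lay above the 3 of the other. At the other end, 1754 genes had a 95% interval of the log2 fold change that lay wholly within 0.25 of 0. Scaling moved the centre: the median log2 fold change of all tested genes was 0.04 after TMM, 0.13 when only the library totals were used, -0.22 on log2(TPM + 1) and 0.22 on that scale once small RNAs were left out. The share of called genes that rose, 49.3% after TMM, was 59.4%, 18.8% and 72.8% under these in turn. Counts and medians of gene lists below are to be read against these shares and shifts. They are given a second time where another scale turns the balance of higher and lower members or the sign of the median; small RNAs left out always refers to log2(TPM + 1). Without the first DMSO library 4510 genes rose and 4591 fell, of 15548 tested. Of all tested genes 1259 would not have passed the count filter through the DMSO libraries alone, and 571 not through the 500 nM libraries alone. Where a list holds such genes, its numbers only describe the genes tested. Besides the lists where this is said, these are BCL2 family, JAK-STAT3, interferon-stimulated, zinc-finger and RNA polymerase III genes. Histones H1, replication-independent histones, and stromal and germinal-centre markers also hold some.

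**Figure D1:**
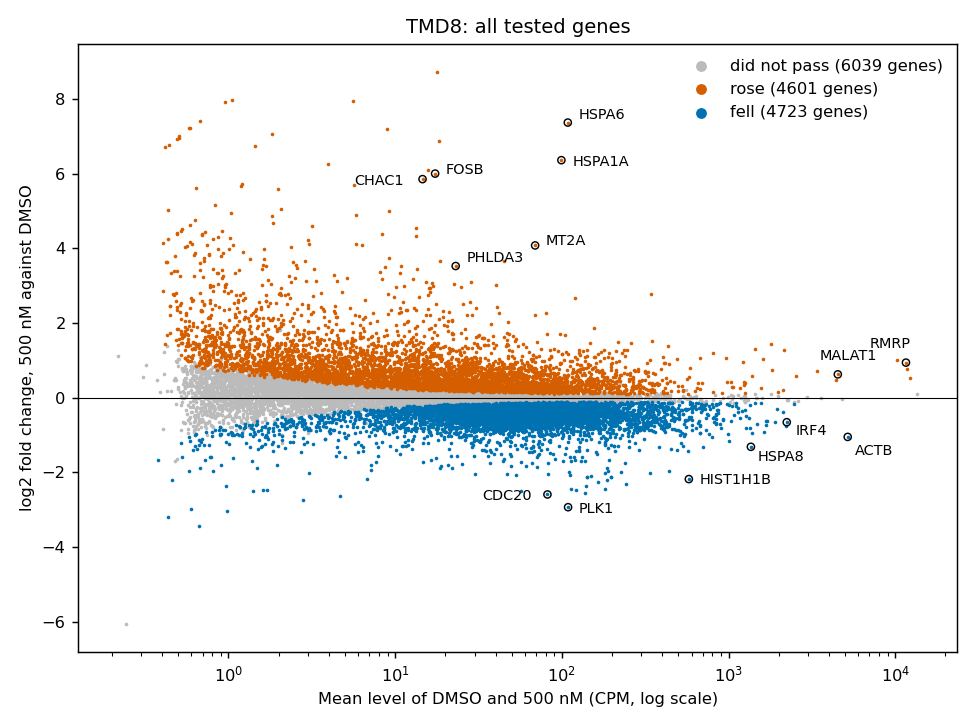
Each point is 1 of the 15363 tested genes; the horizontal axis is the mean level with DMSO and at 500 nM in CPM on a log scale, and the vertical axis is the log2 fold change at 500 nM against DMSO. Grey points did not pass the edgeR threshold, and the labelled rises reach 7.37 for HSPA6 while the labelled falls end at -2.93 for PLK1.

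Among the heat shock genes, the stress-inducible HSP70 genes rose steeply while the constitutive chaperone genes HSPA8 and HSP90AB1 fell. HSPA6, an HSP70 gene that is nearly silent in unstressed cells, was at 1.65, 0.953 and 1.31 CPM in the DMSO libraries and 206, 215 and 226 CPM at 500 nM. HSPA6 rose by 7.37 on the log2 scale (SE 0.26, adjusted p by edgeR 4.5e-13). HSPA1A was at 1.27, 2.803 and 2.87 CPM in the DMSO libraries and 195, 187 and 207 CPM at 500 nM. HSPA1A rose by 6.37 on the log2 scale (SE 0.23, adjusted p by edgeR 4.2e-13). All 3 treated libraries of both genes lay far above all 3 DMSO libraries, but groups without overlap were a condition for naming. HSPA1A and HSPA1B encode the same protein from near-identical copies between which the counting program may split reads, and their summed level was 83.5, 92.9 and 90.6 CPM with DMSO and 801, 772 and 804 CPM at 500 nM, an 8.904-fold ratio of means. HSPA1B alone changed by 2.78 on the log2 scale. In the opposite direction, HSPA8, the constitutive HSP70, was at 2110.2, 1835 and 1882 CPM in the DMSO libraries and 779.6, 778 and 784 CPM at 500 nM. HSPA8 fell by 1.32 on the log2 scale (SE 0.07, adjusted p by edgeR 3.5e-11). HSP90AB1, the constitutive HSP90, fell from 2767 ± 179 to 1636 ± 15.3 CPM. HSP90AB1 fell by 0.76 on the log2 scale (SE 0.06, adjusted p by edgeR 5.3e-09). Of the 30 tested genes of the cytosolic heat shock list, 9 rose (29.9% of all tested genes did) and 19 fell (30.7%), and the median log2 fold change was -0.57 against 0.04 for all tested genes. Through the DMSO libraries alone 1 of the 30 would not have passed the count filter, so these numbers describe the genes tested.

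A stretch of the HSPA6 promoter is shown because it holds the heat shock element, the site known to bind HSF1. The element was searched on both strands as GAA, TTC and GAA or as TTC, GAA and TTC, with 2 bases of any kind between neighbours, and its match is in capitals. Sequences here and below are RefSeq promoters on GRCh38.p14, read 5′ to 3′ on the gene's strand and ending before the transcription start site; this stretch is chr1:161524420-161524539 (+ strand).

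HSPA6: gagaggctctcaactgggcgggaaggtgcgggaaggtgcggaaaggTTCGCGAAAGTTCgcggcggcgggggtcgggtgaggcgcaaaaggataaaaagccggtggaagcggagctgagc

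The match lay 74 to 62 bases before the start site. A heat shock element was present in 6 of the 28 promoters available for the 30 tested list members (21.4%) and in 0.487% of the 27305 promoters of the table, taken from 250 bases before to 50 bases after the start. Besides HSPA6 these were CHORDC1, DNAJA1, DNAJB6, SERPINH1 and HSPA8. HSPA8, which fell, held matches at -230 to -218 and -55 to -43 from its start site, so the element was not confined to genes that rose. A match is a description of the letters and does not show that the factor was bound.

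The metallothioneins, small cysteine-rich proteins that bind zinc and copper, had 6 tested members of the 11 listed, and all 6 rose. MT1G and MT1H had at most 10 counts in any DMSO library and passed the count filter through the treated libraries, so the count of 6 is a description. MT2A was at 7.17, 8.07 and 7.75 CPM in the DMSO libraries and 115, 133 and 144 CPM at 500 nM. MT2A rose by 4.08 on the log2 scale (SE 0.14, adjusted p by edgeR 3.0e-13). MT1X was at 10.98, 10.2 and 7.998 CPM in the DMSO libraries and 48.5, 51.7 and 54.5 CPM at 500 nM. MT1X rose by 2.41 on the log2 scale (SE 0.09, adjusted p by edgeR 1.1e-12). MT1E and MT1F changed by 6.09 and 2.71 on the log2 scale. MT1H had 1, 2 and 1 counts in the DMSO libraries and 468, 471 and 399 counts at 500 nM, a depth-scaled ratio of 467 (exact 95% counting interval 182 to 1716). The metallothionein genes share sequence, so single members are uncertain; summed over 11 genes the level was 22.4, 23.1 and 20.2 CPM with DMSO and 280.4, 313 and 337 CPM at 500 nM, a 14.2-fold ratio of means. SLC39A6, which imports zinc, fell by 0.55 on the log2 scale. In the metallothionein and zinc transport list 7 of 11 tested genes rose and 4 fell (29.9% and 30.7% of all tested genes did), with a median of 2.41; 3 of the tested genes, MT1G and MT1H among them, would not have passed the filter through the DMSO libraries, so these numbers too are only a description. Beside the metallothioneins the gene that rose was the zinc exporter SLC30A1 (1.55), and those that fell were the zinc importers SLC39A6, SLC39A10 (-1.01) and SLC39A14 (-0.39) and the sensor MTF1 (-0.29), named here after their values were seen where the naming rule did not take them. MTF1 and SLC39A14 did not pass with small RNAs left out.

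Stretches of the MT2A and MT1H promoters are shown because both hold repeated metal response elements, the known binding site of MTF1, searched as TGCACNC and TGCGCNC on both strands and printed in capitals. They are chr16:56608404-56608583 (+ strand) and chr16:56669634-56669813 (+ strand) on GRCh38.p14.

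MT2A: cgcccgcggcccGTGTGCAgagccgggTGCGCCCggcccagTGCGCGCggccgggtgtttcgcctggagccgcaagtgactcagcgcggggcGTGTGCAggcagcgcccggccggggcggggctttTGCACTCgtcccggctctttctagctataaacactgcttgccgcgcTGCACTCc
MT1H: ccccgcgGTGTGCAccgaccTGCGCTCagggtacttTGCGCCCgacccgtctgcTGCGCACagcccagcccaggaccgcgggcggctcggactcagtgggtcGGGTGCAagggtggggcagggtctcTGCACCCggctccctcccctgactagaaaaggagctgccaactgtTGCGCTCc

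The stretches show 6 matches for MT2A and 7 for MT1H. The motif is short and 29.4% of all 27305 promoters hold at least 1, and a match does not show binding. Its share in the list is void, because only 7 of the 11 tested members had a promoter in the table.

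Genes of the integrated stress response, which starts from kinases that phosphorylate eIF2-alpha and is carried by the transcription factor ATF4, were higher in most tested cases. In its list of regulators and targets 15 of 19 tested genes rose and 3 fell (29.9% and 30.7% of all tested genes did), with a median log2 fold change of 1.46. Through the DMSO libraries alone 3 of the tested genes, GDF15 and CHAC1 among them, would not have passed the count filter, so the count and the median describe the genes tested. CHAC1, a glutathione-degrading enzyme, was at 0.444, 0.336 and 0.654 CPM in the DMSO libraries and 28.6, 27.5 and 30.1 CPM at 500 nM. CHAC1 rose by 5.86 on the log2 scale (SE 0.17, adjusted p by edgeR 1.0e-13). CEBPB, a transcription factor, was at 8.32, 9.53 and 8.65 CPM in the DMSO libraries and 67.9, 71.2 and 77.4 CPM at 500 nM. CEBPB rose by 3.02 on the log2 scale (SE 0.10, adjusted p by edgeR 1.8e-13). ATF5, a close relative of ATF4, was at 970.1 ± 67.3 CPM with DMSO and reached 2609 ± 132 CPM. ATF5 rose by 1.43 on the log2 scale (SE 0.06, adjusted p by edgeR 4.8e-12). GDF15, a secreted stress hormone, had 0, 1 and 1 counts in the DMSO libraries and 430 in all at 500 nM (ratio 300, exact 95% counting interval 82.5 to 2485). The intervals given for GDF15 and MT1H pool the 3 libraries of a group and cover counting error only, since the labels name no molecular identifiers. They do not allow for the choice of these genes by their low DMSO counts, so the ratios are a description.

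Many, but not all, of the amino-acid genes that ATF4 is known to drive rose. Among enzymes of serine, asparagine and one-carbon synthesis, 8 of 14 tested genes rose and 4 fell (median 0.35, but 6 higher, 6 lower and median -0.07 on log2(TPM + 1)). PHGDH, the first enzyme of serine synthesis, was at 22.03, 21.5 and 24.1 CPM in the DMSO libraries and 73.8, 73.8 and 74.99 CPM at 500 nM. PHGDH rose by 1.72 on the log2 scale (SE 0.07, adjusted p by edgeR 8.9e-13). ASNS, asparagine synthetase, was at 26.1, 25.7 and 25.001 CPM in the DMSO libraries and 66.2, 65.7 and 68.03 CPM at 500 nM. ASNS rose by 1.38 on the log2 scale (SE 0.06, adjusted p by edgeR 2.4e-12). ALDH1L2 and GPT2, mitochondrial enzymes of folate and alanine metabolism, changed by 2.84 and 1.58. Of 13 amino-acid transporters 8 rose and 1 fell (median 0.27, but 3 higher, 4 lower and median -0.10 on log2(TPM + 1)). Of these 13, 1 would not have passed the count filter through the DMSO libraries alone, so the counts describe the genes tested. The glycine transporter SLC6A9 changed by 4.09, and SLC7A5 and SLC3A2, the subunits of one leucine exchanger, by 0.57 and 0.53, with SLC7A5 at 0.19 and short of the threshold on log2(TPM + 1). The cystine importer SLC7A11 and the autophagy receptor SQSTM1, counted with the NRF2 antioxidant genes, rose by 1.43 and 1.19 on the log2 scale, while in that list as a whole 5 of 18 rose and 10 fell (median -0.32), with the peroxiredoxin PRDX1 falling from 352 ± 16.9 to 205 ± 1.296 CPM. PRDX1 fell by 0.78 on the log2 scale (SE 0.06, adjusted p by edgeR 2.6e-09). Cytosolic tRNA synthetases gave 5 of 20 higher and 10 lower, against 29.9% and 30.7% of all tested genes (median -0.14, but 10 higher, 8 lower and median 0.09 with small RNAs left out): WARS, for tryptophan, rose by 0.99 and VARS, for valine, fell by 0.87. Of 17 mitochondrial tRNA synthetases 0 rose and 12 fell (median -0.34).

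The promoters of CHAC1 and ASNS are shown because each holds an amino-acid response element, a known site for ATF4 with its partners, searched as TGATGNAA on both strands and printed in capitals. The stretches are chr15:40953231-40953291 (+ strand) and chr7:97872448-97872508 (- strand).

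CHAC1: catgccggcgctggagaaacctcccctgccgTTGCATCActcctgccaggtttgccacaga
ASNS: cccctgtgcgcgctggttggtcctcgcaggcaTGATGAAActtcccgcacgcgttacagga

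The element lay 209 to 202 bases before the start site of CHAC1 and 68 to 61 bases before that of ASNS. It was present in 3 of the 18 promoters available for the integrated stress response list (16.7%) and in 3.67% of all promoters; within 200 bases before the start, 1 of the 18 held it.

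In the list of the unfolded protein response of the endoplasmic reticulum, the sensor ERN1 rose and the chaperone gene CANX fell. ERN1, also called IRE1, was at 10.8, 8.69 and 9.26 CPM in the DMSO libraries and 44.7, 44.7 and 43.3 CPM at 500 nM. ERN1 rose by 2.21 on the log2 scale (SE 0.12, adjusted p by edgeR 3.1e-11). DNAJB9, EDEM1 and HERPUD1, which serve the disposal of misfolded proteins, changed by 1.79, 1.29 and 1.19. The lectin chaperone CANX fell from 808 ± 53.05 to 528 ± 9.51 CPM. CANX fell by 0.61 on the log2 scale (SE 0.06, adjusted p by edgeR 5.7e-08). The list gave 10 of 21 higher and 8 lower, with a median of 0.10, but 7 higher, 10 lower and median -0.25 on log2(TPM + 1). All 31 tested proteasome subunits fell (30.7% of all tested genes did), with a median log2 change of -0.60. PSMA7 fell by 0.78 and PSMD2 fell by 0.51.

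Known targets of p53 rose almost throughout the list. Of 22 tested genes 21 were higher and 1 was lower, against 29.9% and 30.7% of all tested genes (median of the list 1.05). PHLDA3, which restrains AKT, was at 3.11, 4.09 and 3.77 CPM in the DMSO libraries and 42.9, 44.7 and 39.8 CPM at 500 nM. PHLDA3 rose by 3.53 on the log2 scale (SE 0.12, adjusted p by edgeR 2.2e-13). GADD45A, a growth-arrest gene, was at 3.49, 3.36 and 2.77 CPM in the DMSO libraries and 28.3, 27.01 and 27.4 CPM at 500 nM. GADD45A rose by 3.11 on the log2 scale (SE 0.13, adjusted p by edgeR 2.3e-12). TP53INP1 and SESN1 changed by 3.11 and 2.36, and BTG2, which restrains proliferation, by 0.46 (0.08 on log2(TPM + 1), where it did not pass). Of 16 BCL2 family genes 8 rose and 5 fell (median 0.25, but 5 higher, 6 lower and median -0.09 on log2(TPM + 1)). The BH3-only death genes BBC3 and PMAIP1 were among those that rose: BBC3 was at 19.7, 26.2 and 27.1 CPM in the DMSO libraries and 106, 115 and 119.6 CPM at 500 nM. BBC3 rose by 2.21 on the log2 scale (SE 0.09, adjusted p by edgeR 2.4e-12). PMAIP1 was at 47.998, 44.4 and 43.7 CPM in the DMSO libraries and 148, 145 and 153 CPM at 500 nM. PMAIP1 rose by 1.72 on the log2 scale (SE 0.05, adjusted p by edgeR 1.8e-13). HRK, another BH3-only gene, changed by 3.19, and BID, which links death receptors to mitochondria, fell by 1.25.

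The immediate-early factors are transcription factors and phosphatases that answer to MAP kinase signals and stress. Of 19 tested genes 15 rose and 3 fell, against 29.9% and 30.7% of all tested genes (median 0.99). FOSB was at 0.698, 0.2803 and 0.604 CPM in the DMSO libraries and 35.5, 31.8 and 35.3 CPM at 500 nM. FOSB rose by 6.01 on the log2 scale (SE 0.21, adjusted p by edgeR 4.3e-13). FOSB was the 1 list member that would not have passed the count filter through the DMSO libraries, so the count of 15 describes the genes tested. FOS was at 1.27, 1.01 and 1.46 CPM in the DMSO libraries and 27.5, 23.6 and 25.5 CPM at 500 nM. FOS rose by 4.34 on the log2 scale (SE 0.22, adjusted p by edgeR 1.6e-11). DUSP1 and JUND changed by 2.74 and 1.51. Further genes among the 12 largest rises were RHOB, a small GTPase (4.54), GADD45G, a relative of GADD45A (4.40), EPAS1, the hypoxia factor HIF-2-alpha (4.12), and the less studied genes FAM166A (4.89) and C11orf96 (4.13). EPAS1 was at 0.444, 0.2803 and 0.252 CPM in the DMSO libraries and 5.01, 5.46 and 6.75 CPM at 500 nM. Every DMSO value of EPAS1 was under 1 CPM, and it would not have passed the count filter through the DMSO libraries alone. Its groups did not overlap, which was a condition for naming it. NPPC, which encodes C-type natriuretic peptide, had 1, 2 and 2 counts with DMSO and 122, 102 and 76 at 500 nM (ratio 83.7, exact 95% counting interval 35.5 to 259.7). MT1H, GDF15 and NPPC were the 3 genes that had at most 3 counts in every DMSO library and at least 5 CPM at 500 nM, and 0 genes did the reverse. The 3 genes were named for these counts, so their ratios and intervals are only a description.

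**Figure D2:**
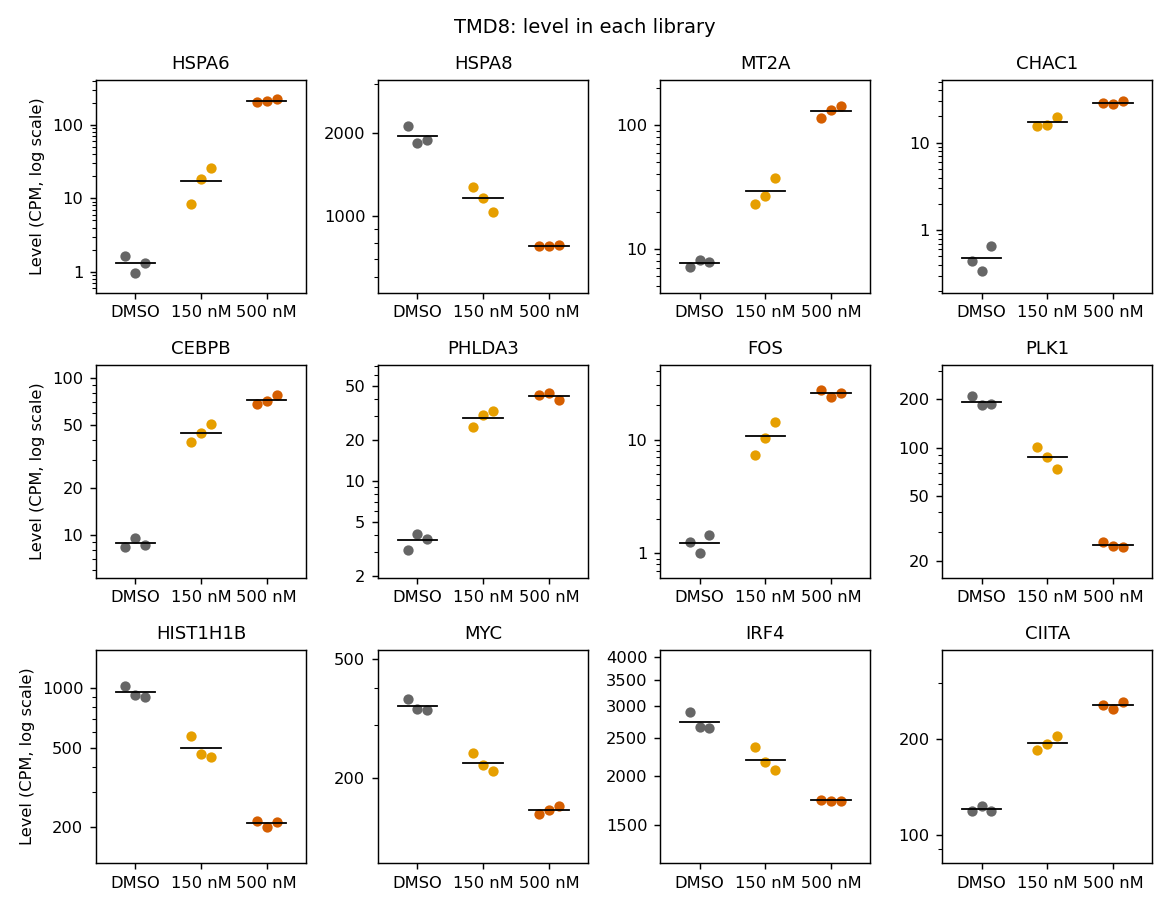
Levels of 12 named genes in each TMD8 library, in CPM on a log axis, with 1 point per library and a short line at the mean of each group of 3; groups from left to right are DMSO, 150 nM and 500 nM. In the 12 genes shown the DMSO and 500 nM libraries do not overlap, which was a condition for naming them. The 150 nM libraries lie between those groups.

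The mitotic programme fell as a whole. All 50 tested genes of the mitotic and G2/M list were lower (30.7% of all tested genes were), with a median log2 fold change of -1.22. PLK1, the polo-like kinase of mitotic entry, was at 209, 183 and 186 CPM in the DMSO libraries and 26.3, 24.7 and 24.4 CPM at 500 nM. PLK1 fell by 2.93 on the log2 scale (SE 0.09, adjusted p by edgeR 1.8e-13). CDC20, the activator of the anaphase-promoting complex, was at 150.2, 133 and 139 CPM in the DMSO libraries and 23.5, 20.5 and 26.4 CPM at 500 nM. CDC20 fell by 2.59 on the log2 scale (SE 0.10, adjusted p by edgeR 1.1e-12). CCNB1, cyclin B1, was at 208, 184 and 184 CPM in the DMSO libraries and 37.2, 34.4 and 33.5 CPM at 500 nM. CCNB1 fell by 2.45 on the log2 scale (SE 0.09, adjusted p by edgeR 5.5e-13). KIF20A, a cytokinesis motor, fell by 2.03 and MKI67, the proliferation antigen Ki-67, fell by 1.04. The first DMSO library was the highest in PLK1, CDC20 and CCNB1. In bulk RNA, fewer cells in mitosis and less of these RNAs per mitotic cell cannot be told apart.

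The PLK1 and CDC20 promoters are shown because they hold the cell-cycle homology region, a short element known to tie promoters to G2 and mitosis, searched as TTTGAA on both strands and printed in capitals. The stretches are chr16:23678809-23678888 (+ strand) and chr1:43358791-43358941 (+ strand).

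PLK1: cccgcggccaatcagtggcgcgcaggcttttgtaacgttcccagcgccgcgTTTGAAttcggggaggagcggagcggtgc
CDC20: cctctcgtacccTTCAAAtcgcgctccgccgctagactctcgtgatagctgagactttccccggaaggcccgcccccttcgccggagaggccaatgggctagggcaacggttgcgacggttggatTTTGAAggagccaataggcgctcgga

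The match lay 29 to 24 bases before the start of PLK1, and those of CDC20 lay 178 to 173 and 65 to 60 bases before its start. The hexamer was present in 31 of the 43 promoters available for the 50 mitotic genes (72.1%) and in 15.4% of all promoters. Among the 100 largest falls and 100 largest rises only 76 and 65 had a promoter in the table, so their shares are void.

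Replication-dependent histone genes, which are transcribed in S phase and whose RNAs end in a stem-loop instead of a poly(A) tail, fell in most members of each class. Among linker histones H1, 4 of 5 tested genes fell and 1 rose; the numbers were 15 of 15 and 0 for H2A, 16 of 17 and 1 for H2B, 12 of 13 and 0 for H3, and 12 of 13 and 0 for H4. The class medians were -1.42, -1.58, -1.51, -2.002 and -1.74 in the same order. Of all tested genes 30.7% fell and 29.9% rose. HIST1H1B was at 1019, 921 and 901 CPM in the DMSO libraries and 215, 200.5 and 211 CPM at 500 nM. HIST1H1B fell by 2.18 on the log2 scale (SE 0.08, adjusted p by edgeR 4.2e-13). HIST1H2BH, the histone gene with the largest fall, was at 260.5, 218 and 224 CPM in the DMSO libraries and 39.9, 38.9 and 41.2 CPM at 500 nM. HIST1H2BH fell by 2.55 on the log2 scale (SE 0.08, adjusted p by edgeR 1.8e-13). Histone genes share long stretches, and HIST2H3A with HIST2H3C and HIST2H4A with HIST2H4B had identical values, so single members are uncertain. Summed over 72 genes the level was 15502, 14487 and 14308 CPM with DMSO and 4601, 4485 and 4609.7 CPM at 500 nM, a fall to 0.309 of the DMSO mean. The sums of the classes H1, H2A, H2B, H3 and H4 fell to 0.318, 0.336, 0.332, 0.2698 and 0.288 of theirs. Among replication-independent histones, 3 of 9 rose and 5 fell (median -0.21, but 3 higher, 4 lower and median 0.01 with small RNAs left out): the variant H2AFZ fell by 0.69 and the linker histone H1FX rose by 0.87.

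Among DNA replication genes 32 of 46 tested genes fell and 5 rose (30.7% and 29.9% of all tested genes did), with a median of -0.37. The numbers were 0 higher, 41 lower and median -0.70 on log2(TPM + 1), and 14 higher, 23 lower and median -0.15 with small RNAs left out. The mitotic genes had a median of -1.22, and the lists were not tested against each other. DBF4, the activator of the CDC7 kinase, fell by 0.92, and MCM5, a helicase subunit, fell from 515 ± 15.9 to 326 ± 1.62 CPM. MCM5 fell by 0.66 on the log2 scale (SE 0.04, adjusted p by edgeR 9.0e-10). In the list of G1 cyclins, E2F factors and CDK inhibitors 5 of 22 rose and 8 fell (median -0.02, but 7 higher, 8 lower and median 0.07 with library size alone, and 13 higher, 5 lower and median 0.19 with small RNAs left out). CDK4 fell by 0.77 and the cyclin gene CCND2 fell by 0.60, while CCNE2 rose by 1.004. MYC, which drives growth and ribosome production, was at 367, 339.6 and 337 CPM in the DMSO libraries and 151, 155 and 159.8 CPM at 500 nM. MYC fell by 1.16 on the log2 scale (SE 0.06, adjusted p by edgeR 1.1e-11). MXD4, which competes with it for MAX, rose by 1.04.

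Genes for making ribosomes and for mitochondria fell in near-complete sets, while 30.7% of all tested genes fell and 29.9% rose. All 45 nucleolar ribosome biogenesis genes were lower, with a median of -0.78; RRS1 fell by 1.16 and NPM1, nucleophosmin, fell from 1571 ± 125 to 1072 ± 7.03 CPM. NPM1 fell by 0.55 on the log2 scale (SE 0.06, adjusted p by edgeR 4.3e-07). Of 76 mitochondrial ribosomal proteins 72 fell and 0 rose (median -0.59), and MRPL12 fell by 1.32. Of 80 nuclear genes of the respiratory chain 70 fell and 2 rose (median -0.51). SDHB, a subunit of succinate dehydrogenase, fell by 0.84 and ATP5B, of ATP synthase, fell by 0.68. Of the cytosolic ribosomal proteins 39 of 79 fell and 3 rose, with a median of -0.12, but 36 higher, 1 lower and median 0.11 with small RNAs left out. Tubulins fell in 11 of 14 cases and rose in 1 (median -0.53), led by TUBA1C at -1.41. ACTB, cytoplasmic actin, had the largest fall in CPM of all tested genes, from 7519, 6667 and 6799 CPM with DMSO to 3303, 3374 and 3458 CPM at 500 nM. ACTB fell by 1.05 on the log2 scale (SE 0.06, adjusted p by edgeR 1.3e-10).

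**Figure D3:**
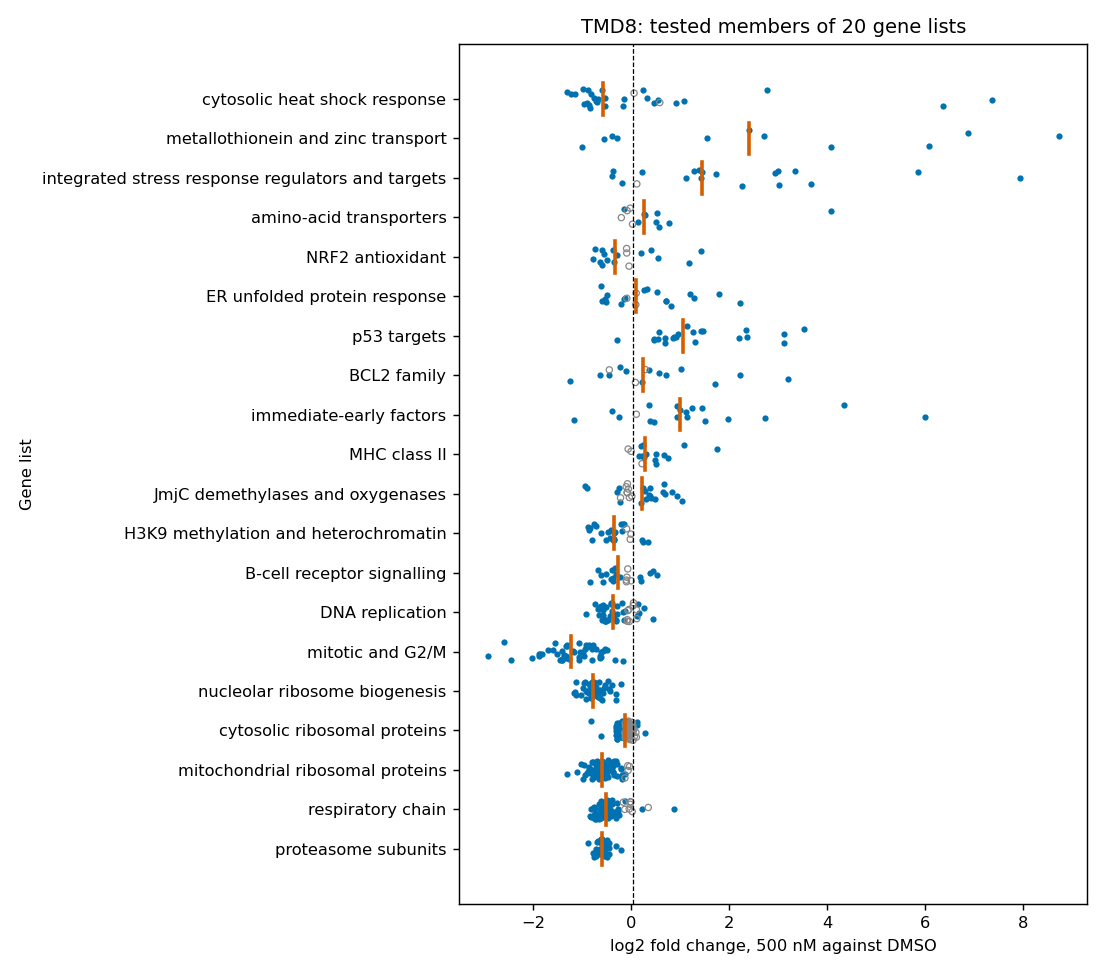
Log2 fold change at 500 nM against DMSO for the tested members of 20 gene lists, 1 point per gene, with a short line at the list median; filled points passed the edgeR threshold and the dashed line marks the median of all tested genes, 0.04. The 50 mitotic, 45 ribosome biogenesis and 31 proteasome genes all lie below 0, and the integrated stress response, p53 and immediate-early lists lie mostly above it; the rightmost metallothionein point is MT1H, whose fitted value depends on a small added count.

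In the list of JmjC demethylases and oxygenases, not all of which are demethylases, more genes rose than fell with TMM scaling, and most heterochromatin genes fell. Of 28 JmjC demethylases and oxygenases 15 rose and 5 fell (median 0.22, but 4 higher, 13 lower and median -0.14 on log2(TPM + 1), and 21 higher, 1 lower and median 0.44 with small RNAs left out). KDM6B, an H3K27 demethylase, was at 54.2, 55.3 and 55.7 CPM in the DMSO libraries and 113, 111 and 116 CPM at 500 nM. KDM6B rose by 1.04 on the log2 scale (SE 0.07, adjusted p by edgeR 1.4e-09). JHDM1D and JARID2 rose by 0.93 and 0.82, and the H3K9 demethylases KDM4A and KDM4C by 0.38 and 0.39, changes that were 0.01 and 0.02 and did not pass the test on log2(TPM + 1); MINA, a ribosomal oxygenase, fell by 0.94. In the list of H3K9 methylation and heterochromatin 20 of 26 fell and 3 rose (median -0.35). LBR, the lamin B receptor that tethers heterochromatin to the nuclear envelope, was at 229.8, 206 and 212 CPM in the DMSO libraries and 118, 117 and 117 CPM at 500 nM. LBR fell by 0.88 on the log2 scale (SE 0.06, adjusted p by edgeR 1.8e-09). LMNB1, lamin B1, fell by 0.85, the H3K9 methyltransferase SUV39H1 fell by 0.85, the heterochromatin protein gene CBX3 fell by 0.79 and the KRAB co-repressor TRIM28 fell by 0.38. Numbered zinc-finger genes, many of which recruit TRIM28, rose in 99 of 418 cases (29.9% of all tested genes did) and fell in 73 (30.7%), with a median of 0.07, but 12 higher, 188 lower and median -0.19 on log2(TPM + 1). Among Polycomb genes 9 of 24 rose and 11 fell, against 29.9% and 30.7% of all tested genes (median -0.06, but 9 higher, 10 lower and median 0.03 with library size alone, and 12 higher, 4 lower and median 0.16 with small RNAs left out). PHF19, a subunit that guides PRC2, was at 178, 178 and 178 CPM in the DMSO libraries and 70.2, 63.4 and 64.6 CPM at 500 nM. PHF19 fell by 1.43 on the log2 scale (SE 0.06, adjusted p by edgeR 1.4e-12).

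IRF4 and BATF, genes of the activated B cell, fell, while most class II antigen presentation genes rose with TMM scaling. IRF4 was at 2902, 2655 and 2647 CPM in the DMSO libraries and 1739, 1733 and 1732 CPM at 500 nM. IRF4 fell by 0.66 on the log2 scale (SE 0.06, adjusted p by edgeR 2.5e-08). BATF, its partner at AP-1 composite sites, fell by 0.89. The lymphoid factor IKZF1 fell by 0.94. In the list of B-cell and plasma-cell transcription factors as many genes rose as fell, 9 and 9 of 24 (median 0.04, but 0 higher, 15 lower and median -0.33 on log2(TPM + 1), and 15 higher, 5 lower and median 0.21 with small RNAs left out). Of all tested genes 29.9% rose and 30.7% fell. Through the DMSO libraries alone 1 of the 24 would not have passed the count filter, so the list counts describe the genes tested. CIITA, the master regulator of MHC class II, was at 119, 123 and 119 CPM in the DMSO libraries and 257, 249 and 262 CPM at 500 nM. CIITA rose by 1.09 on the log2 scale (SE 0.05, adjusted p by edgeR 4.5e-12). Of 16 class II genes 13 rose and 0 fell (median 0.28, but 3 higher, 2 lower and median -0.07 on log2(TPM + 1)); HLA-DQA1 and HLA-DMA changed by 0.76 and 0.66, the latter by 0.28 on log2(TPM + 1), where it did not pass. HLA genes vary in sequence between people and share stretches, so their counts depend on the reference. Class I presentation genes gave 5 higher and 5 lower of 15, close to the shares of all tested genes (median 0.04, but 2 higher, 10 lower and median -0.33 on log2(TPM + 1), and 10 higher, 3 lower and median 0.24 with small RNAs left out). Interferon-stimulated genes gave 14 and 9 of 35 (median 0.15, but 7 higher, 14 lower and median -0.15 on log2(TPM + 1)), with ISG20 at 1.26 and IFITM1 at -1.55.

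Among signalling genes of the activated B-cell type, the adaptor MYD88 and the NF-kB target BIRC3 fell and the cytokine gene LTB rose. In B-cell receptor signalling 12 of 22 fell and 5 rose (30.7% and 29.9% of all tested genes did), with a median of -0.27, but 9 higher, 8 lower and median -0.04 with small RNAs left out. The adaptor MYD88 was at 102, 91.3 and 87.7 CPM in the DMSO libraries and 58.8, 57.5 and 57.8 CPM at 500 nM. MYD88 fell by 0.69 on the log2 scale (SE 0.06, adjusted p by edgeR 2.0e-08). The kinase gene SYK fell by 0.59 and the phosphatase PTPN6 fell by 0.84. Among NF-kB subunits, inhibitors and targets 8 rose and 9 fell of 23, against 29.9% and 30.7% of all tested genes (median -0.02, but 11 higher, 6 lower and median 0.07 with library size alone, and 1 higher, 15 lower and median -0.38 on log2(TPM + 1)). BIRC3, an inhibitor of apoptosis, was at 110.1, 97.8 and 94.9 CPM in the DMSO libraries and 46.3, 45.6 and 41.7 CPM at 500 nM. BIRC3 fell by 1.17 on the log2 scale (SE 0.08, adjusted p by edgeR 5.3e-10). The subunit gene REL rose by 0.61 (0.23 on log2(TPM + 1), where it did not pass). For JAK-STAT3, SOCS and PIM genes the numbers were 4 higher and 5 lower of 16 (median -0.07, but 5 higher, 3 lower and median 0.02 with library size alone): the feedback inhibitor SOCS3 fell by 1.18 and STAT3 fell by 0.54, while STAT5A and SOCS1 rose by 2.37 and 1.54. Cytokine, chemokine and receptor genes rose in 11 of 21 cases and fell in 3 (median 0.43, but 5 higher, 9 lower and median 0.05 on log2(TPM + 1)). Of the 21, 2 would not have passed the count filter through the DMSO libraries alone and 2 not through the 500 nM libraries alone. The counts therefore describe the genes tested. LTB, lymphotoxin beta, was at 4.44, 9.59 and 10.8 CPM in the DMSO libraries and 34.1, 37.1 and 35.5 CPM at 500 nM. LTB rose by 2.07 on the log2 scale (SE 0.17, adjusted p by edgeR 8.7e-09). Its partner LTA changed by 1.60, while IL10 fell by 0.83. The first DMSO library of LTB was below the other DMSO libraries. The groups of LTB did not overlap, which was a condition for naming it.

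Metabolic genes changed in both directions: the sterol gene LSS and the hypoxia gene NDRG1 rose, while FASN and the glycolysis genes LDHA and GAPDH fell. LSS, lanosterol synthase, was at 220, 247 and 245 CPM in the DMSO libraries and 612, 624 and 639.9 CPM at 500 nM. LSS rose by 1.398 on the log2 scale (SE 0.06, adjusted p by edgeR 1.9e-12). FASN, fatty acid synthase, was at 712, 729 and 717 CPM in the DMSO libraries and 349.9, 352 and 360 CPM at 500 nM. FASN fell by 1.02 on the log2 scale (SE 0.06, adjusted p by edgeR 5.7e-11). SREBF1, its transcriptional activator, fell by 1.04. The sterol and fatty-acid list gave 5 higher and 13 lower of 29 (median -0.10, but 15 higher, 8 lower and median 0.12 with small RNAs left out). Of all tested genes 29.9% were higher and 30.7% lower, the shares against which this and the next lists are to be read. Hypoxia and glycolysis genes gave 13 and 13 of 34 (median -0.03, but 14 higher, 13 lower and median 0.07 with library size alone, 8 higher, 19 lower and median -0.36 on log2(TPM + 1), and median 0.02 without the first DMSO library). By at least 1 on the log2 scale 7 of them rose and 2 fell. Through the DMSO libraries alone 3 of the 34 would not have passed the count filter, and through the 500 nM libraries alone 1. These counts therefore describe the genes tested. The summed level of the tested genes was 10408 to 11073 CPM with DMSO and 6580.5 to 6735 CPM at 500 nM. The hypoxia-inducible NDRG1 changed by 2.41, LDHA, lactate dehydrogenase, by -1.33 and GAPDH by -0.92. The aryl hydrocarbon receptor AHR was at 448, 413 and 400.3 CPM in the DMSO libraries and 159.6, 160.1 and 158 CPM at 500 nM. AHR fell by 1.401 on the log2 scale (SE 0.08, adjusted p by edgeR 7.0e-11). Its list gave 4 higher and 2 lower of 6 (median 0.38, but 0 higher, 2 lower and median 0.0041 on log2(TPM + 1)). Iron genes gave 2 higher and 6 lower of 14 (median -0.09, but 5 higher, 4 lower and median 0.12 with small RNAs left out), with FTL, ferritin light chain, at -0.64. HEXIM1, which holds the elongation factor P-TEFb inactive, was at 60.3, 69.9 and 70.4 CPM in the DMSO libraries and 149.8, 147 and 157 CPM at 500 nM. HEXIM1 rose by 1.17 on the log2 scale (SE 0.07, adjusted p by edgeR 1.1e-10). Its list gave 6 higher and 4 lower of 16 (median 0.09, but 1 higher, 8 lower and median -0.26 on log2(TPM + 1)). The MYC network gave 6 and 4 of 11 (median 0.34, but 3 higher, 5 lower and median -0.04 on log2(TPM + 1)).

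Several noncoding RNAs carried the largest gains in CPM. RMRP and RPPH1, the RNA polymerase III transcripts of RNase MRP and RNase P, were at 7943 ± 177 and 8709.9 ± 620.2 CPM with DMSO and at 15247 ± 692 and 14890.2 ± 758 CPM at 500 nM, log2 fold changes of 0.94 and 0.77. The nuclear long noncoding RNA MALAT1 rose by 0.63. LOC284801 was at 3231, 8723 and 8417 CPM in the DMSO libraries and 14835, 14252 and 12015 CPM at 500 nM. LOC284801 rose by 1.01 on the log2 scale (SE 0.22, adjusted p by edgeR 7.8e-04). Its first DMSO library lay well under the others. MIR3648 was at 7739, 11144 and 11351 CPM in the DMSO libraries and 15000, 14457 and 13908 CPM at 500 nM. MIR3648 rose by 0.52 on the log2 scale (SE 0.10, adjusted p by edgeR 3.1e-04). On log2(TPM + 1) the changes of RPPH1, MALAT1 and MIR3648 were 0.40, 0.25 and 0.11 and did not pass, and without the first DMSO library LOC284801 rose by 0.67. LOC284801 and MIR3648 belong to the spacer-like loci whose share of counts is given above, and the part of residual ribosomal RNA in their values was not tested. Of 5 tested RNA polymerase III transcripts 3 rose and 1 fell (median 0.77, but 1 higher, 2 lower and median 0.40 on log2(TPM + 0.1)).

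The libraries kept the marker profile of B cells. The summed level of the 10 tested of 11 B-cell markers was 3794 to 4067 CPM with DMSO and 3688 to 3822 CPM at 500 nM. Of these 10 genes 3 were higher and 5 lower (29.9% and 30.7% of all tested genes were). The sums of markers here and below are over the tested members only. Markers of T and NK cells summed to 19.2 to 21.1 CPM and 22.2 to 25.4 CPM (4 of 11 tested, 1 higher), with CD3E at 0 counts in all 6 libraries. Myeloid markers summed to 1.33 to 2.06 CPM and 3.14 to 3.99 CPM (3 of 10 tested, 1 higher), with S100A8 and S100A9 at 0 counts. All 3 tested myeloid markers would not have passed the count filter through the DMSO libraries, so their sum and call are only a description. Stromal and epithelial markers summed to 85.1 to 91.1 CPM and 121 to 122 CPM (6 of 11 tested, 3 higher, 0 lower), and the collagen gene COL1A1, chosen after its values were seen, went from 3.502 ± 0.408 to 29.8 ± 0.366 CPM. The part of other cells in these sums was not tested. Of the germinal-centre markers 3 of 6 tested rose and 2 fell.

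A direct test of 500 nM against 150 nM in TMD8 showed which changes grew with the dose. It called 4409 of 15363 genes (28.7%), 2111 higher (13.7%) and 2298 lower (15%). The share of called genes that were higher, 47.9%, was 10.4% on log2(TPM + 1) and 65.7% there with small RNAs left out. At 150 nM 44.2% of tested genes differed from DMSO. Both doses were compared with the same DMSO libraries, so for each gene the values are given side by side. Among genes with more than 3 counts in every library compared, the largest further rises were in MT1H, from 2.03 ± 0.626 CPM at 150 nM to 35.6 ± 4.999 CPM at 500 nM (log2 difference 4.07, edgeR adjusted p 1.8e-11), MT1E (3.73), MT1G (3.67), HSPA6 (3.57) and HSPA1A (3.32). HSPA6 was at 8.49, 18.2 and 25.7 CPM in the 150 nM libraries, uneven values that all lay above DMSO and below 500 nM. The integrated stress gene CHAC1 was at 17.1 ± 2.37 CPM at 150 nM and 28.7 ± 1.31 CPM at 500 nM (log2 difference 0.73, edgeR adjusted p 3.2e-05). PLK1 fell further from 87.6 ± 13.6 to 25.1 ± 1.005 CPM (-1.79, edgeR adjusted p 1.3e-09), followed by CCNB1 (-1.45), SPHK1, sphingosine kinase 1 (-1.44), HIST1H2BH (-1.42) and HIST2H2BF (-1.42). Of the 50 mitotic genes 48 were lower at 500 nM than at 150 nM with TMM scaling (15% of all tested genes were), and of the 22 p53 targets 18 were higher (13.7%). In the class II list 3 of 16 were higher at 500 nM than at 150 nM and 1 lower; CIITA was among those higher, from 194 ± 9.76 CPM at 150 nM.

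The change at 500 nM was tested against that of OCI-Ly1 in 1 fit of all 18 libraries, where the lines share no library. Of 16604 genes tested, 7699 (46.4%) changed by different amounts: 3009 (18.1%) were more positive in TMD8 and 4690 (28.2%) more negative. Of the called genes 39.1% were more positive, 10.9% on log2(TPM + 1) and 56.6% on that scale after centring each library. Line and growth medium changed together and cannot be told apart. The largest difference among the genes eligible for naming was in HSPA1A, which went from 5.58 ± 3.12 to 3.11 ± 0.899 CPM in OCI-Ly1. The difference between the changes was 7.08 on the log2 scale (SE 0.43, adjusted p by edgeR 9.1e-13). Its near-identical copy HSPA1B gave 2.77 (SE 0.11, adjusted p by edgeR 1.3e-16). Reads may be split between the copies, so each single difference is uncertain, and their sum was not tested between the lines. The 4 further genes with the most positive differences were PRX (4.29), FOSB (3.95), SYTL2 (3.91) and FAM166A (3.89). On the negative side, TUBB2B, a tubulin (-4.97), BATF3 (-4.79), ICAM1 (-4.02) and MOCOS (-3.89) were genes that rose in OCI-Ly1 from low levels; ICAM1, an adhesion molecule under NF-kB, went from 1.42 ± 0.218 to 17.7 ± 0.113 CPM there and from 87.9 ± 1.704 to 67.7 ± 2.92 CPM in TMD8. C1orf95 had the most negative difference (-5.14), but its DMSO libraries in TMD8 were at 96.4, 189.7 and 8.45 CPM and its groups overlapped. Leaving out 1 library moved this difference to between -6.22, without the first 500 nM library of TMD8, and -4.25, without its second DMSO library.

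With TMM scaling MYC and IRF4 fell in TMD8 and rose in OCI-Ly1. MYC went from 304 ± 15.9 to 383 ± 8.49 CPM in OCI-Ly1 (log2 fold change 0.34) and fell in TMD8, a difference of -1.53 (SE 0.08, adjusted p by edgeR 5.8e-14). IRF4 rose in OCI-Ly1, from 222 ± 13.9 to 424 ± 16.2 CPM (0.93), with a difference of -1.62 (SE 0.08, adjusted p by edgeR 4.8e-14). Of the 50 mitotic genes 49 were more negative in TMD8 with TMM scaling (28.2% of all tested genes were), with PLK1 at -1.50 (SE 0.13, adjusted p by edgeR 4.6e-10), and of the 45 ribosome biogenesis genes 40 were. Of the 22 p53 targets 14 were more positive in TMD8 (18.1%), GADD45A by 2.91 (SE 0.16, adjusted p by edgeR 1.7e-13), and 3 more negative. BCL2, which blocks apoptosis and was chosen after its values were seen, rose from 222 ± 3.97 to 451 ± 8.84 CPM in TMD8; in OCI-Ly1 it was at 549.7 ± 7.18 CPM with DMSO and 554 ± 14.1 CPM at 500 nM, a difference of 0.98 (SE 0.07, adjusted p by edgeR 5.2e-12). In this test with TMM scaling 18.1% of all tested genes were more positive in TMD8 and 28.2% more negative. In the stress and amino-acid lists that follow, more genes were more negative than more positive in TMD8, except in the unfolded protein response list. The heat shock list had 8 more positive and 15 more negative of 30 (medians of -0.60 in TMD8 and -0.36 in OCI-Ly1), the integrated stress response list 5 and 8 of 19 (medians of 1.42 in TMD8 and 2.56 in OCI-Ly1) and the immediate-early list 4 and 8 of 19 (medians of 0.96 in TMD8 and 1.32 in OCI-Ly1). The unfolded protein response list had 12 more positive and 8 more negative of 21 (medians of 0.07 in TMD8 and 0.06 in OCI-Ly1). The metallothionein and zinc transport list had 1 more positive and 6 more negative of 11. The NRF2 antioxidant list had 2 and 6 of 18 and the amino-acid transporters 2 and 6 of 13. In serine, asparagine and one-carbon synthesis 10 of 14 genes were more negative and 2 more positive (medians of 0.32 in TMD8 and 1.17 in OCI-Ly1), and of 20 cytosolic tRNA synthetases 17 were more negative and 0 more positive (medians of -0.17 in TMD8 and 0.45 in OCI-Ly1). For SESN2, a leucine sensor, the difference of -0.04 (SE 0.18, adjusted p by edgeR 0.90) did not pass. Nor did those of ASNS, -0.05 (SE 0.08, adjusted p by edgeR 0.63), and HSPA8, -0.11 (SE 0.09, adjusted p by edgeR 0.34). On log2(TPM + 1) the differences were -1.55, -0.62 and -0.59 and passed.

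**Figure D4:**
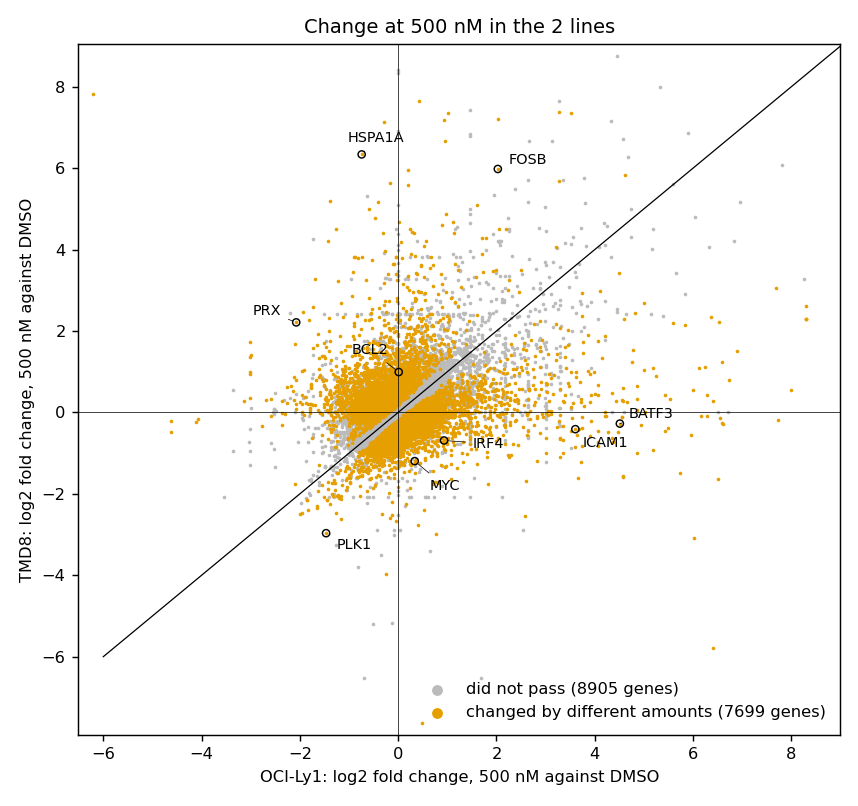
Log2 fold change at 500 nM against DMSO in TMD8 (vertical) and in OCI-Ly1 (horizontal) for the 16604 genes tested in the fit of both lines; orange points changed by different amounts at an edgeR adjusted p under 0.05 and grey points did not, and the diagonal line marks equal change. HSPA1A lies below 0 on the horizontal axis and above 6 on the vertical one, and MYC and IRF4 lie below 0 in TMD8 and above 0 in OCI-Ly1. The place of HSPA1A is uncertain because reads may be split with its copy HSPA1B.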

How the data were processed

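RNA sequencing of TMD8 and OCI-Ly1 cells was deposited as tables of gene-level values. The submitters' processing notes name kallisto 0.46.0, R 4.3.1, DESeq2 1.40.2 and the build hg19, without their roles. The authors deposited an estimated count per gene and library, and TPM values, which sum to 1000000 per library; the filter and summing steps behind both are not given in the sources used here. Columns were matched to samples by their names.

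Estimated counts were rounded to whole numbers. The 9 TMD8 libraries entered 1 quasi-likelihood fit in edgeR 4.0.16 (R 4.3.3) with TMM scaling and filterByExpr by group, and 500 nM was compared with DMSO and with 150 nM, with p-values adjusted by Benjamini-Hochberg over all genes tested. The difference between the lines was a contrast in a fit of all 18 libraries. Every adjusted p in the text is from edgeR. DESeq2 1.42.0, other scalings and filters, limma 3.58.1 on log2(TPM + 1) and log2(TPM + 0.1), a replicate block and leaving out each library were alternatives. The scripts were tested on simulated data. CPM are not corrected for gene length, so levels are compared between groups and not between genes. With 3 libraries a group, single-gene permutation tests were not used.

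Of 23686 gene symbols 22689 (95.8%) matched RefSeq names, and 837 of 843 list genes were in the tables. Promoters were read from RefSeq on GRCh38.p14 by symbol, not from hg19. Genes were named by rule: the 12 largest rises and falls, the 5 largest differences in CPM each way, up to 4 eligible members per list and its most abundant one, genes at most at 3 counts in one group, the 5 largest differences between lines and between doses each way, and KDM4A, KDM4B and KDM4C. To be eligible a gene needed non-overlapping groups, over 3 counts in all 6 libraries and a higher-group mean of 5 CPM or more. Some genes that the rule takes are not reported here. The comparison, the 46 lists and the rule were chosen with earlier results of these data known.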

Additional observations from a re-analysis of the deposited data

Results flagged for a closer look

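The change at 500 nM differed between TMD8 and OCI-Ly1 at an edgeR adjusted p under 0.05 for the difference itself in 3009 genes that were more positive in TMD8 and 4690 that were more negative. The values below are the log2 change in TMD8 minus that in OCI-Ly1, each tested in the fit of 18 libraries.

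Of the named genes these were more positive in TMD8: HSPA1A by 7.08, HSPA1B by 2.77, FOSB by 3.95 and GADD45A by 2.91. HSPA1A and HSPA1B are near-identical copies, so their single values are uncertain. PRX, which encodes periaxin, gave 4.29, SYTL2, a vesicle transport gene, 3.91, and FAM166A 3.89. BCL2 gave 0.98.

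More negative in TMD8 were the B-cell and growth genes IRF4 (-1.62) and MYC (-1.53) and the mitotic kinase gene PLK1 (-1.50). The transcription factor gene BATF3 gave -4.79, ICAM1 -4.02, the tubulin gene TUBB2B -4.97 and the molybdenum cofactor sulfurase gene MOCOS -3.89. C1orf95 gave -5.14, and -4.25 without the second DMSO library of TMD8, in which it was highest, and -6.22 without the first 500 nM library.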

How the results depend on the processing

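The balance of higher and lower calls moved with the scaling, of the counts as of the deposited TPM. At 500 nM against DMSO, DESeq2 gave 3963 higher and 4470 lower, relative log expression scaling 4486 higher and 4780 lower, library size alone 5679 higher and 3883 lower, no low-count filter 4835 higher and 4969 lower, and a fit of the 6 libraries alone 4604 higher and 4685 lower. On log2(TPM + 1) limma gave 1751 higher and 7581 lower, on log2(TPM + 0.1) 1764 higher and 7576 lower and on log2(TPM + 1) with small RNAs left out 7327 higher and 2740 lower. Changes of at least 1 on the log2 scale numbered 156 higher and 900 lower on log2(TPM + 1), 513 higher and 1285 lower on log2(TPM + 0.1), 298 higher and 292 lower after centring each library and 894 higher and 143 lower with small RNAs left out. For 500 nM against 150 nM the same scales gave 464 higher and 3980 lower with a pseudocount of 1 and 422 higher and 4146 lower with 0.1. For the difference between the lines they gave 1112 higher and 9104 lower and 949 higher and 8824 lower in TMD8, and 5670 higher and 4351 lower after centring. Small RNAs took 56.7% to 64.3% of TPM with DMSO and 73.2% to 76.4% at 500 nM; the cause of the shifts was otherwise not tested.

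Leaving out 1 library at a time gave 4083 to 4854 higher and 4331 to 4767 lower genes against DMSO, 1585 to 2494 and 1688 to 2773 against 150 nM, and 2564 to 2869 and 4296 to 4596 for the difference between the lines. All 131 named genes with a test kept their call when any 1 library was left out. Most were named for their call and non-overlapping groups in these same libraries, so keeping it is no test of them. On log2(TPM + 1) 9 lost the call, on log2(TPM + 0.1) 10 and after centring 2 (C1orf95 and MIR3648). With small RNAs left out 3 of the 128 tested there lost it (C1orf95, MTF1 and SLC39A14). With the replicate number as a block (replicate block) there were 4659 higher and 4731 lower genes, and no named gene changed its call. Same-numbered libraries deviated together with correlations of -0.018, 0.023 and 0.006, so the numbers do not pair the libraries.

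These list medians changed sign, and the cause was not tested. With library size alone they were Polycomb 0.034, hypoxia and glycolysis 0.066, G1 and E2F 0.0702, NF-kB 0.075 and JAK-STAT3 0.025. On log2(TPM + 1) they were JmjC -0.14, serine and one-carbon synthesis -0.068, amino-acid transporters -0.10, unfolded protein response -0.25, BCL2 family -0.089, MYC network -0.038, B-cell transcription factors -0.33, MHC class II -0.074, MHC class I -0.33, interferon-stimulated -0.15, HEXIM1 and P-TEFb -0.26 and zinc-finger genes -0.19. On log2(TPM + 0.1) they were JmjC -0.15, serine and one-carbon synthesis -0.073, amino-acid transporters -0.11, unfolded protein response -0.27, BCL2 family -0.11, MYC network -0.044, B-cell transcription factors -0.33, MHC class II -0.095, MHC class I -0.35, interferon-stimulated -0.22, HEXIM1 and P-TEFb -0.27 and zinc-finger genes -0.28. After centring they were B-cell transcription factors -0.075, MHC class I -0.081 and HEXIM1 and P-TEFb -0.0077. With small RNAs left out they were Polycomb 0.16, iron handling 0.12, cytosolic tRNA synthetases 0.086, hypoxia and glycolysis 0.19, G1 and E2F 0.19, replication-independent histones 0.012, sterol and fatty acids 0.12, NF-kB 0.20, JAK-STAT3 0.15 and cytosolic ribosomal proteins 0.11. Without the first DMSO library they were hypoxia and glycolysis 0.019 and NF-kB 0.032, and without the first 500 nM library NF-kB 0.0089. Over all libraries left out in turn the NF-kB median ran from -0.045 to 0.032 and the hypoxia median from -0.073 to 0.019. At this depth a gene with 3 counts lay at 0.151 to 0.307 CPM, which limits statements about silent genes.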
